A study of Mus musculus with 12 samples.

Results

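The tetraspanins are a family of small membrane proteins, and 9 of their genes are described here across 12 arrays: Cd9, Cd37, Cd53, Cd63, Cd81, Cd82, Cd151, Tspan32 and Tspan33. They were taken by symbol from the annotation of the arrays' probe sets. Of the 9 genes, 8 had at least 1 probe set that the table used here pairs with that symbol alone, which made 20 probe sets of the 45101 on the array. Cd63, a tetraspanin of lysosomes and platelet granules, had none and was not analysed here. The brightest probe set stood for a gene, and 7 of the 8 genes passed the filter on low values, which left 10759 genes in all. Cd82 did not pass. Each of the 7 tested genes exceeded its array's median on 12 of 12 arrays, so none was tested only through the groups where it was high.

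Messenger RNA was measured in G1ME cells, a murine line of progenitors of megakaryocytes and red cells that is Gata1-negative per the labels, so all 4 groups share that deficiency. The groups were GATA1 42 h and GATA1 18 h, in which cells received a MIGR1 retrovirus that expresses GATA1 with green fluorescent protein (GFP), and vector 42 h and vector 18 h, in which they received the MIGR1-GFP control vector. GFP-positive cells were sorted 42 h or 18 h after transduction, with 3 arrays in each group, lettered A, B and C. The series' design text calls the triplicates biological, and a single line gave all of the samples. Values are the deposited linear intensities of Affymetrix probe sets, with array medians of 8.05 to 8.29. Changes are differences of mean log2(intensity + 16), GATA1 minus vector or 42 h minus 18 h, given with the SE. A gene passed the test where limma's p, adjusted by the Benjamini-Hochberg method over the 10759 genes, was under 0.05.

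Tetraspanins cross the membrane several times and gather integrins, other adhesion molecules, receptors and enzymes into shared patches of the membrane. Through these partners they take part in adhesion, signalling, membrane fusion and the trafficking of other proteins. On blood cells they differ in range: Cd9 and Cd151 are known from platelets among many tissues, Cd37 and Cd53 are largely limited to leukocytes, and Tspan33 was described in red cell precursors. GATA1 is a DNA-binding protein of the erythroid and megakaryocytic lineages, whose precursors do not mature without it.

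The single probe set for Gata1 read 2044 ± 355 in GATA1 42 h cells and 3137 ± 116 in vector 42 h cells (SD, n = 3 each). At 18 h it read 2334 ± 91.0 in GATA1 cells and 3002 ± 284 in vector cells. It was dimmer where the construct was supplied, with differences of -0.63 ± 0.11 at 42 h (adjusted p = 0.00346 by limma) and -0.36 ± 0.11 at 18 h (adjusted p = 0.226). No source used here places its probes against the lost part of the gene or against the construct, so it checks no label. Below, arrays are named by their labels, as GATA1-labelled or vector-labelled, and directions rest on those. Erythroid markers summed to 33611 to 40300.3 on GATA1-labelled and 642 to 1196 on vector-labelled arrays at 42 h, and megakaryocyte markers to 22076 to 26295 and 14459 to 14931, so both kinds of marker were detected in the line. Of the 6 megakaryocyte markers, Pf4 and Ppbp rose at 42 h, Gp9 fell (-0.38, adjusted p = 0.0423) and 2 did not pass. Vwf averaged 5.28 and 5.44 in vector-labelled cells at 42 h and 18 h, under every array median. It met the filter only through GATA1-labelled arrays, where it was high, and its test is not used. Pf4 made up most of the sum, at 17656 ± 1896 in GATA1-labelled and 8111 ± 596 in vector-labelled cells at 42 h. The part of erythroid or megakaryocyte cells in the rises of Tspan33, Cd9 and Cd151 was not tested.

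**Figure D1:**
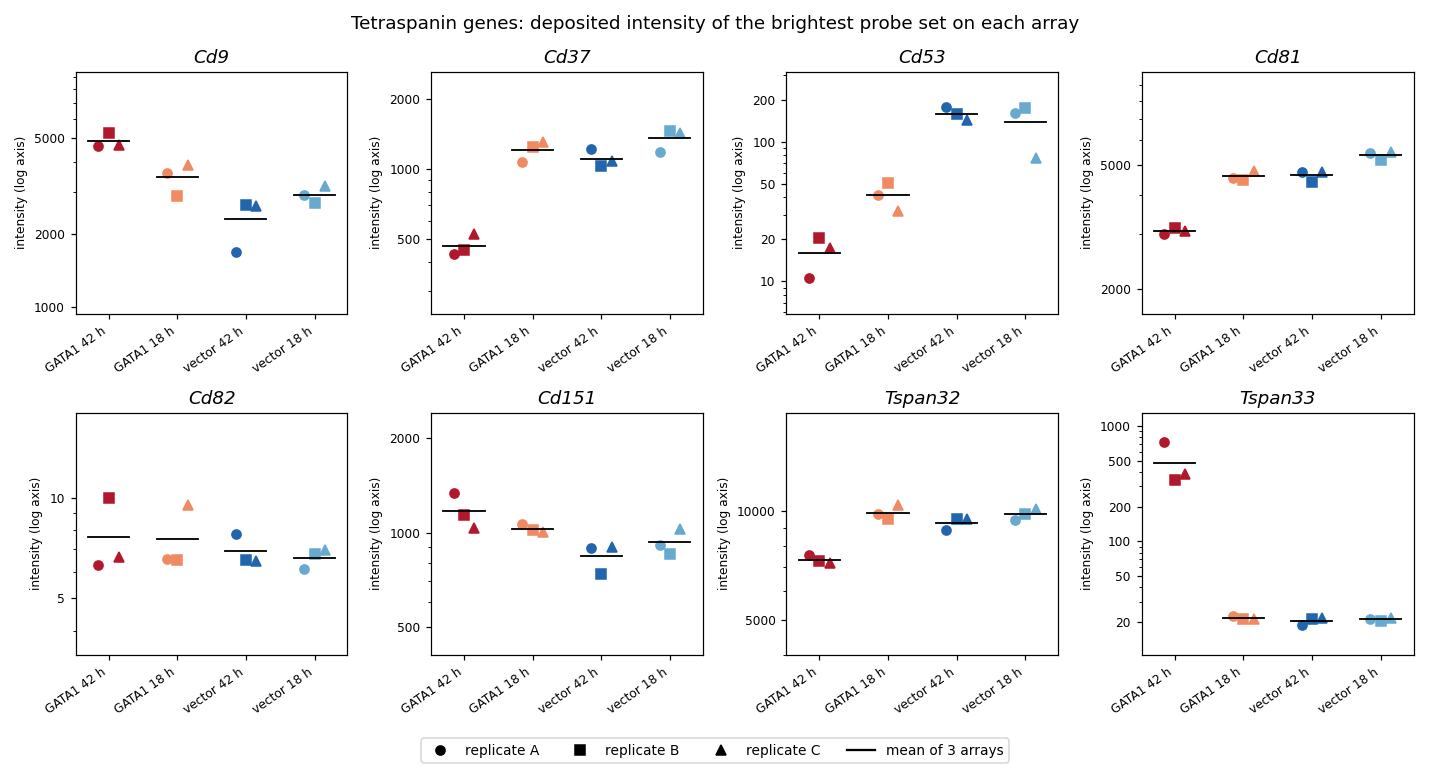
Deposited intensity on a log axis for the brightest probe set of each of 8 tetraspanin genes, one point per array (circle, square and triangle for replicates A, B and C) and a bar at the mean of 3 arrays. Tspan33 is high only on the 3 arrays of GATA1 42 h, at 721, 341 and 383, while Cd53 and Cd37 are lowest on those arrays and Cd82 stays under 10 on all 12.

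At 42 h, 3 tetraspanin genes were higher in GATA1-labelled cells (Tspan33, Cd9 and Cd151) and 4 were lower (Cd53, Cd37, Cd81 and Tspan32). Among all genes tested 20.9% passed in this comparison, 10.3% as higher and 10.6% as lower. The median difference of the 7 genes was -0.34, beside 0.0011 over all genes tested. The 7 were chosen with earlier results of these data known, so their count and median are not read as those of the family. The GATA1-labelled and vector-labelled arrays did not overlap for any of the 7, as for 33.4% of all genes tested. In bulk samples such as these, a smaller number of cells with a message and less message in each cell cannot be told apart.

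Tspan33 had the largest change. It belongs to the TspanC8 group of tetraspanins, which bind the membrane protease ADAM10 and govern its maturation, and it was named Penumbra from mouse erythroblasts. Its brightest probe set read 721, 341 and 383 on the GATA1-labelled arrays at 42 h, against 18.8, 21.3 and 21.5 on the vector-labelled arrays. The values at 18 h were 22.7, 21.2 and 21.4 on GATA1-labelled and 21.4, 20.4 and 21.7 on vector-labelled arrays. The GATA1 42 h arrays thus stood apart from the other 9, which lay in a narrow band near the low end of the scale. Within GATA1 42 h, replicate A read highest. The same array also read highest of the 12 in a control probe set for 18S ribosomal RNA, at log2 12.4. Replicates B and C of GATA1 42 h read 6.08 and 4.79 there. Its bearing on Tspan33 was not tested.

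The mean at 42 h was 482 ± 208 in GATA1-labelled cells and 20.5 ± 1.52 in vector-labelled cells (SD, n = 3 each), a ratio of 23.5. On the log2(intensity + 16) scale the rise was 3.69 ± 0.22 (95% interval 3.21 to 4.18, limma adjusted p = 3.66e-06). No detection call shows the vector-labelled level to be above background, so the ratio and the size of the rise depend on values that may be background. It was 4.41 with a pseudocount of 1 and 2.63 with one of 64, since the vector-labelled values lay close to the pseudocount. Without replicate A of GATA1 42 h the rise was 3.37. At 18 h the difference was 0.02 ± 0.22 (adjusted p = 0.9999), with a 95% interval of -0.46 to 0.51. The effect at 42 h exceeded that at 18 h by 3.67 ± 0.31 (interaction, adjusted p = 1.90e-04).

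Of the 4 probe sets of Tspan33, 3 exceeded the array median on 12 of 12 arrays, and these 3 rose at 42 h when every probe set was fitted on its own and p-values were adjusted over 22881 probe sets. The second brightest read 608, 259.7 and 604 on GATA1-labelled and 10.1, 13.2 and 14.0 on vector-labelled arrays, a rise of 4.06 ± 0.27 (adjusted p = 1.33e-05). For the third the readings were 84.8, 63.4 and 107 against 12.1, 12.2 and 12.3. On none of the 3 did the groups overlap. The dimmest probe set read 14.3, 14.4 and 26.5 on GATA1-labelled and 5.16, 5.20 and 5.22 on vector-labelled arrays at 42 h. It exceeded the array median only on the 3 arrays of GATA1 42 h and so entered the fit only through the group where it was high, and its test is not used. Probe sets of 1 gene share its transcripts and are not independent measures.

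The promoter window of Tspan33 is shown because this gene changed most. It is RefSeq's sequence from assembly GRCm38.p6, at chr6:29693964-29694263 on the plus strand, and covers 250 bases before the annotated start of the gene and 50 after it.
Tspan33: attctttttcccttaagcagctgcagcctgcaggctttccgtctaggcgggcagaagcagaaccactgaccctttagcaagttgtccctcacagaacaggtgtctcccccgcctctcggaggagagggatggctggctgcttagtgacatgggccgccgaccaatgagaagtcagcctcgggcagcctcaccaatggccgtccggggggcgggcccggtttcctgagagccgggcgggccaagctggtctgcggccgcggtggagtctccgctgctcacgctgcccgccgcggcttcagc
Windows of this length were searched on both strands for the GATA words, namely AGATAA with its variant AGATAG and then TGATAA with its variant TGATAG. They were also searched for GAGGAA, a word of PU.1-type ETS sites. Of 32851 RefSeq mouse promoter windows, 29.8% held a GATA word and 28.3% held GAGGAA. The window of Tspan33 held neither, which says only that these letters are not in it. Those of Cd9, Cd81 and Cd151 held neither as well.

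Cd9, a tetraspanin abundant on platelets that associates with integrins, rose by a ratio of 2.10 between the group means. It read 4662, 5249 and 4689 on GATA1-labelled arrays at 42 h, against 1686, 2650.0 and 2611 on vector-labelled arrays. At 18 h the readings were 3585, 2883 and 3879 on GATA1-labelled and 2912, 2688 and 3163 on vector-labelled arrays, which overlapped. Replicate A of vector 42 h was the lowest of all 12. The rise at 42 h was 1.09 ± 0.17 (adjusted p = 0.0017), and 0.88 without that array. The difference at 18 h was 0.23 ± 0.17 (adjusted p = 0.938). The change in effect between the times was 0.86 ± 0.25 and did not pass (adjusted p = 0.097).

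Cd151, a partner of laminin-binding integrins that carries a blood group antigen on human red cells, rose less. It read 1332, 1141 and 1030.3 on GATA1-labelled arrays and 891, 737 and 903 on vector-labelled arrays at 42 h, with no overlap. At 18 h it read 1064, 1019 and 1001 on GATA1-labelled and 913, 857 and 1025 on vector-labelled arrays, which overlapped. The rise at 42 h was 0.46 ± 0.11 (adjusted p = 0.0146). The call ended when only the 6 arrays compared were fitted (adjusted p = 0.0727) and when the arrays lettered A were left out together (0.40, adjusted p = 0.101), over a range of 0.00473 to 0.101 for all alternatives. At 18 h the difference was 0.14 ± 0.11 (adjusted p = 0.94), and the interaction of 0.32 ± 0.15 did not pass (adjusted p = 0.372).

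Of 6 probe sets for Cd151, 4 passed the filter and 3 of these rose at 42 h. Their changes were 0.46 ± 0.11, 0.51 ± 0.13 and 0.30 ± 0.08. The remaining one differed by 0.32 ± 0.12 (adjusted p = 0.134). All 4 differences had the same sign.

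**Figure D2:**
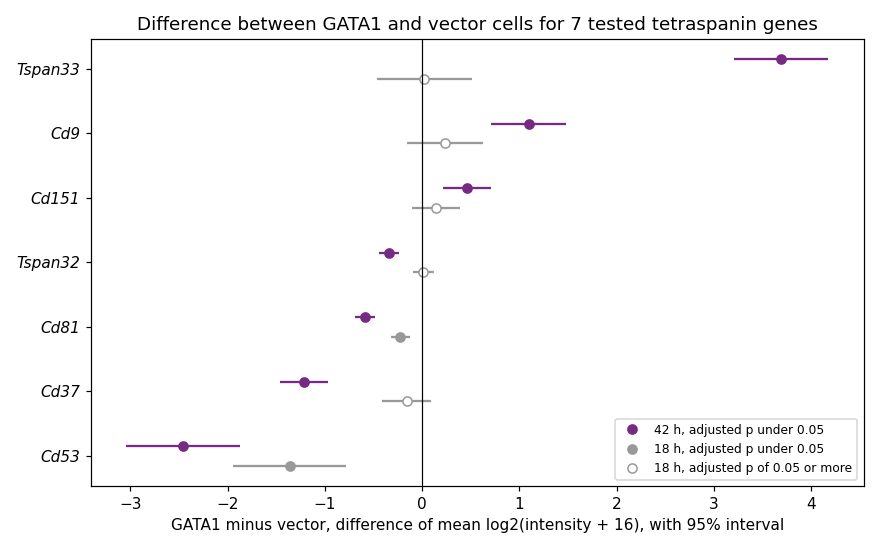
Difference between GATA1-labelled and vector-labelled cells in mean log2(intensity + 16), with its 95% interval, for 7 tested tetraspanin genes at 42 h (purple, upper point) and 18 h (grey, lower point), filled where the adjusted p was under 0.05. At 42 h the points run from -2.46 for Cd53 to 3.69 for Tspan33 and all are filled, while at 18 h only those of Cd53 and Cd81 are.

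Cd53 had the largest fall. It encodes a tetraspanin largely limited to leukocytes, where it sits with integrins and other immune receptors. It read 10.5, 20.3 and 17.3 on GATA1-labelled arrays at 42 h, against 176, 157 and 144 on vector-labelled arrays. The values at 18 h were 41.5, 50.8 and 31.9 on GATA1-labelled and 162, 176 and 75.8 on vector-labelled arrays. The groups did not overlap at either time, and the lowest vector-labelled array, replicate C of 18 h, lay less far above the GATA1-labelled arrays than the others.

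The mean of Cd53 at 42 h was 16.02 ± 4.99 in GATA1-labelled and 159 ± 16.3 in vector-labelled cells (SD, n = 3 each), so that the vector mean was 9.93 times the GATA1 mean. The difference was -2.46 ± 0.26 (adjusted p = 1.42e-04), the 27th lowest of 10759. It was -3.27 with a pseudocount of 1 and -1.48 with one of 64. At 18 h the difference was -1.36 ± 0.26 (adjusted p = 0.0337). The interaction was -1.10 ± 0.37 and did not pass (adjusted p = 0.162), so the effects at the times were not shown to differ. A further probe set of Cd53 read between 5.72 and 5.90 on all 12 arrays and was not tested.

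Cd37 is another leukocyte tetraspanin, best known from B cells. It read 432, 449 and 529 on GATA1-labelled arrays and 1216, 1032 and 1082 on vector-labelled arrays at 42 h. The values at 18 h were 1076, 1243 and 1310.3 on GATA1-labelled and 1188, 1452 and 1423 on vector-labelled arrays, which overlapped. The GATA1 42 h arrays were thus the lowest of the 12. The difference at 42 h was -1.21 ± 0.11 (adjusted p = 5.84e-05), at 18 h it was -0.16 ± 0.11 (adjusted p = 0.893), and the interaction was -1.05 ± 0.16 (adjusted p = 0.00546). The dimmer probe set of Cd37 read 82.97, 109 and 54.1 against 257, 211 and 78.9 at 42 h. Its groups overlapped, and its difference of -0.92 ± 0.41 did not pass (adjusted p = 0.196 over all probe sets). With that probe set the interaction was -0.59 and did not pass (adjusted p = 0.753).

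Some markers of other blood cells were also lower in GATA1-labelled cells. The 8 mast cell and basophil markers summed to 116 to 147 on GATA1-labelled and 1988 to 3359 on vector-labelled arrays at 42 h, and to 903 to 1005 and 1898 to 2477 at 18 h. Of the 3 that were tested, Cpa3 and Kit fell at 42 h and Hdc differed by 0.07 (adjusted p = 0.482), while Fcer1a, Ms4a2, Mcpt8, Tpsb2 and Cma1 were near the bottom of the scale, with group means of 4.14 to 5.76. The 8 macrophage and neutrophil markers summed to 448 to 564 on GATA1-labelled and 2751 to 3026 on vector-labelled arrays at 42 h, and to 1273 to 1804 and 3111 to 3477 at 18 h. Of the 5 that were tested, 3 fell at 42 h (Fcgr3, Mpo and Spi1), while Csf1r and Lyz2 differed by 0.01 and -0.71 (adjusted p = 0.95 and 0.0559). Elane, Cd14 and Adgre1 were not tested and had group means of 3.38 to 5.34. The 7 lymphoid markers summed to 56.9 to 84.2 on GATA1-labelled and 94.5 to 168 on vector-labelled arrays at 42 h. Of these, 6 were too dim to be tested, with group means of 3.98 to 7.74, and Cd79b fell (-1.10, adjusted p = 0.0424). Whether such cells were present, and whether they had a part in the differences of Cd53 and Cd37, was not tested.

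Cd81, a broadly expressed tetraspanin, fell by a smaller amount with little spread. It read 3004, 3139.7 and 3061 on GATA1-labelled and 4738, 4407 and 4734 on vector-labelled arrays at 42 h. At 18 h it read 4554, 4470.5 and 4792 on GATA1-labelled and 5452, 5182 and 5519 on vector-labelled arrays. Neither time showed an overlap. The difference was -0.59 ± 0.04 at 42 h (adjusted p = 1.82e-05) and -0.22 ± 0.04 at 18 h (adjusted p = 0.0391), with an interaction of -0.36 ± 0.06 (adjusted p = 0.0118). The call of the interaction ended with a stricter filter (adjusted p = 0.07) and without the arrays lettered A (adjusted p = 0.15), over a range of 0.00857 to 0.15.

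Tspan32, a tetraspanin of blood cells known in platelets as a partner of the fibrinogen receptor, changed least among the genes that passed at 42 h. It read 7532, 7252 and 7199 on GATA1-labelled and 8881, 9479 and 9478 on vector-labelled arrays at 42 h. At 18 h it read 9810.5, 9501 and 10394 on GATA1-labelled and 9448, 9844 and 10129 on vector-labelled arrays, which overlapped. The GATA1 42 h arrays were the lowest of the 12. The difference was -0.34 ± 0.05 at 42 h (adjusted p = 7.47e-04) and 0.01 ± 0.05 at 18 h (adjusted p = 0.9999, 95% interval -0.09 to 0.12). The interaction was -0.35 ± 0.07 (adjusted p = 0.0167), and its call ended under the same 2 alternatives (adjusted p = 0.0848 and 0.0844) and with the dimmer probe set, at -0.12 (adjusted p = 0.862). The dimmer probe set of Tspan32 read 55.0, 56.1 and 40.8 against 56.7, 48.1 and 47.8 at 42 h and differed by -0.01 ± 0.11 (adjusted p = 0.9963).

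**Figure D3:**
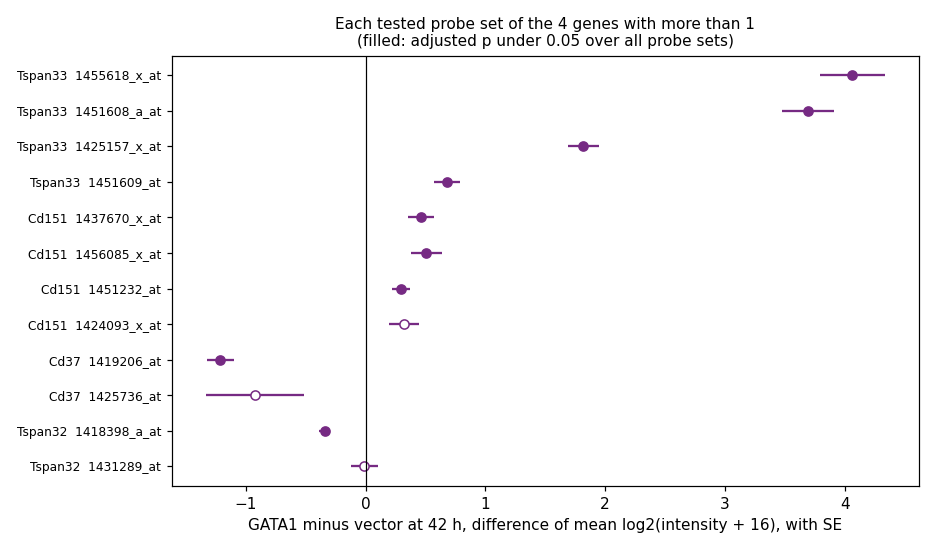
Difference at 42 h in mean log2(intensity + 16), GATA1-labelled minus vector-labelled, with the SE, for each tested probe set of the 4 genes with more than 1, from the brightest in GATA1 42 h down within a gene, filled where the adjusted p over 22881 probe sets was under 0.05. Filled on the positive side are 3 of 4 probe sets of Cd151 and those of Tspan33, whose dimmest entered the fit only through the group where it was high, while Cd37 and Tspan32 have 1 filled and 1 open point each.

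Of the 13 promoter windows of the 9 members, 3 held a GATA word, beside 29.8% of RefSeq mouse windows. GAGGAA was in 5 of the 13, beside 28.3%. Whether either word goes with a direction of change was not tested. Among the 7 tested genes the promoter windows of Cd53, Cd37 and Tspan32 held a GATA word, and all 3 of these genes were lower at 42 h, as was Cd81, whose window held none. Their windows are shown for that reason, with the GATA words in capitals. They are RefSeq sequences of GRCm38.p6, read along the gene's strand: chr3:106790100-106790399 (minus) for Cd53, chr7:45238790-45239089 (minus) for Cd37 and chr7:143004796-143005095 (plus) for Tspan32.
Cd53: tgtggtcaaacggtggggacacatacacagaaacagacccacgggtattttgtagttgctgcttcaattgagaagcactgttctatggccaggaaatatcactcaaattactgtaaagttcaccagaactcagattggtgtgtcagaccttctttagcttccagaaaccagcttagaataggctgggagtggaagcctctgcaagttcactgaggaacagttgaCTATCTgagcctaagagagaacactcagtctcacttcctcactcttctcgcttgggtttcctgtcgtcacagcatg
Cd37: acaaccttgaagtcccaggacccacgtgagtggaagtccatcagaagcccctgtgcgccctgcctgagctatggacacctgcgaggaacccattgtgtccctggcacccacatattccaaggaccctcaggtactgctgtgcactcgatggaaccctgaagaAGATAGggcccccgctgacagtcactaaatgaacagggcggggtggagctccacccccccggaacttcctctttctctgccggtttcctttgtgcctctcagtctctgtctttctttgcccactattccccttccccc
Tspan32: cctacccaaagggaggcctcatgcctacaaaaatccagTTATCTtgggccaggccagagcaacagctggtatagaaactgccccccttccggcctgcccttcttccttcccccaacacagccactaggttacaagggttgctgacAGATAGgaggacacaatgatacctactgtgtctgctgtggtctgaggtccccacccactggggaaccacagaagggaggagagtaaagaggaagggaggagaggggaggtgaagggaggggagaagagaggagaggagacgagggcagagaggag
Cd53 and Cd37 held AGATAG once each, on the reverse strand in Cd53, where it reads CTATCT. Tspan32 held AGATAA on the reverse strand, where it reads TTATCT, and AGATAG on the forward strand. The same 3 windows also held GAGGAA, at 2 places in Cd53, 2 in Cd37 and 1 in Tspan32, none overlapping a GATA word. A match of letters in a window is a description of the sequence and not evidence of binding, and binding was not measured here. Tspan32 and Cd81 are neighbours on chromosome 7 in that assembly, with 1 annotated gene, which does not code for protein, between them.

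At 18 h the 7 tested genes differed less. Cd53 and Cd81 passed as lower and the other 5 did not pass, where 1.85% of all genes tested passed, 1.11% as higher and 0.744% as lower. The groups did not overlap for these 2 genes, as for 15.4% of all genes tested. The median difference of the 7 was 0.01, beside -0.01 over all genes tested. Both calls lay close to the threshold. For Cd53 the call ended on leaving out any array other than replicate C of vector 18 h or replicate A of GATA1 42 h, with adjusted p up to 0.136. For Cd81 it ended on leaving out any array other than replicate C of GATA1 18 h or replicate B of vector 42 h, with adjusted p up to 0.155. The difference itself lay between -1.70 (without replicate C of vector 18 h) and -1.17 for Cd53, and between -0.25 and -0.20 for Cd81, over these 12 fits. With the letters A, B and C as a replicate block the same number of the 7 passed, 2, while the count over all genes tested was 358 against 199 without the block.

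Between the times, in GATA1-labelled cells, Tspan33 was higher at 42 h than at 18 h by 3.64 ± 0.22 (adjusted p = 8.15e-06). Cd37, Cd81 and Tspan32 were lower at 42 h, with differences of -1.34 ± 0.11, -0.58 ± 0.04 and -0.43 ± 0.05 (adjusted p = 7.11e-05, 3.91e-05 and 3.20e-04). These are 4 of the 7 tested genes, where 14.6% of all genes tested passed, 6.72% as higher and 7.91% as lower, and the comparison shares its GATA1-labelled arrays with those above. In 4 of the 7 genes the effect of GATA1 itself differed between the times, as given above, 1 upward and 3 downward, where 4.66% of all genes tested passed, 2.29% upward and 2.37% downward. Cd9 differed by 0.50 ± 0.17 and Cd53 by -0.84 ± 0.26 without passing (adjusted p = 0.0887 and 0.061), although the arrays of the times did not overlap for either gene, and 31.5% of all genes tested showed no overlap. Without replicate A of vector 42 h Cd9 passed (adjusted p = 0.0182). On the GATA1-labelled arrays Cd53 was dim by 42 h, and with a pseudocount of 1 its difference was -1.34 (adjusted p = 0.0219), over a range of 0.0073 to 0.287 for all alternatives. The lowest of these came without replicate C of vector 18 h (-0.84). Cd151 differed by 0.17 ± 0.11 (adjusted p = 0.359).

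In vector-labelled cells none of the 7 passed between 42 h and 18 h by limma, where 0.0186% of all genes tested, 2 genes, did. With the replicate block none of the 7 passed and 41 genes did over all. At an unadjusted p under 0.05 there were 2, Cd37 at -0.28 ± 0.11 and Cd81 at -0.22 ± 0.04. Cd81 read lower on the 42 h than on the 18 h vector-labelled arrays with no overlap (adjusted p = 0.247). Cd9 did not overlap between the times either, at -0.36 ± 0.17 (adjusted p = 0.821), and 10.3% of all genes tested showed no overlap here. Tspan33 differed by -0.03 ± 0.22.

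Over the 4 groups each gene had its own order of levels. For Tspan33 GATA1 42 h stood highest and the other groups did not differ beyond their spread. For Cd53 the order from low to high was GATA1 42 h, GATA1 18 h, vector 18 h and vector 42 h, where the vector groups overlapped and the GATA1 groups did not pass against each other. For Cd37, Cd81 and Tspan32 GATA1 42 h was lowest. For Cd9 and Cd151 GATA1 42 h was highest, followed by GATA1 18 h, which did not pass against vector 18 h or against GATA1 42 h. Cd82, known in other settings as a suppressor of metastasis and a marker of quiescent stem cells, read between 6.10 and 9.98 in its brighter probe set over all 12 arrays. Its other probe set read between 5.91 and 6.45, and neither was tested.

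Of 22 further members of the family that were listed, 21 had a probe set and 11 passed the filter. At 42 h 0 of the 11 rose and 1 fell by limma, and 10 did not pass, with differences between -0.30 and 0.47 and a median over the 11 of -0.05. Among all genes tested 10.3% rose and 10.6% fell. The one that fell was Tspan13, a close relative of Tspan31, which read 1232 ± 204 in GATA1-labelled and 2197 ± 219.8 in vector-labelled cells at 42 h, a difference of -0.83 ± 0.13 (adjusted p = 0.00122). At 18 h none of the 11 passed by limma, and Tspan13 differed by -0.48 (adjusted p = 0.123). The 10 that were not tested had group means between 3.79 and 8.27. Whether the 7 genes differ as a group from these 11 was not tested, since the 7 were chosen with results of these data known.

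**Figure D4:**
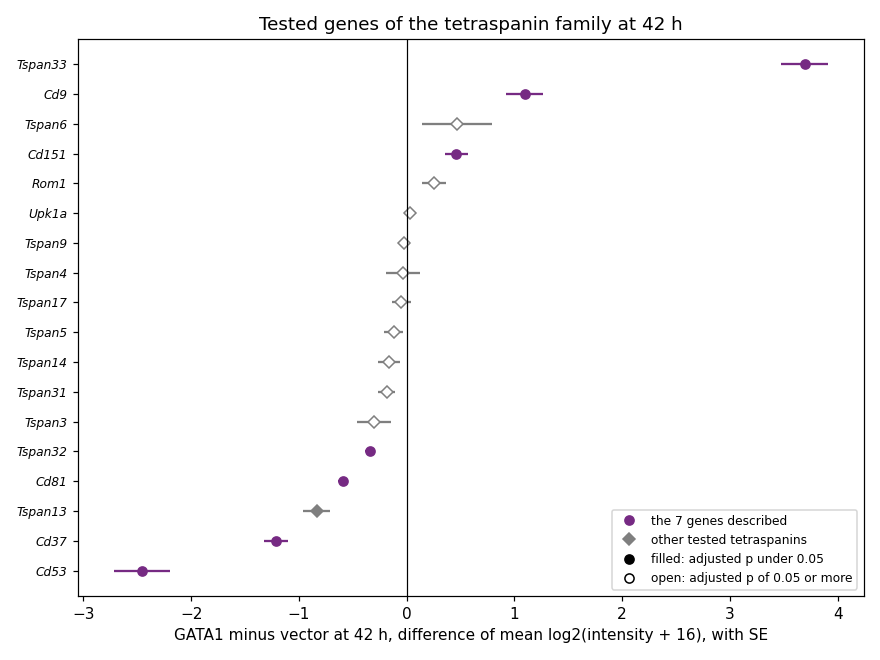
Difference at 42 h in mean log2(intensity + 16), GATA1-labelled minus vector-labelled, with the SE, for the 7 tested tetraspanin genes described (circles) and 11 other tested family members (diamonds), filled where the adjusted p was under 0.05. Tspan13, at -0.83, is the only filled diamond.

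At 42 h no tested TspanC8 gene other than Tspan33 passed against vector. Tspan14 read 748 ± 57.2 in GATA1-labelled and 839 ± 16.2 in vector-labelled cells at 42 h (-0.17, adjusted p = 0.335). Tspan5 and Tspan17 differed by -0.12 and -0.05 (adjusted p = 0.432 and 0.816). Both were dim, with group means of 11.6 to 15.9 and 14.4 to 24.7. In GATA1-labelled cells Tspan17 was lower at 42 h than at 18 h, with a difference of -0.42 ± 0.09 (adjusted p = 0.0118 by limma). In vector-labelled cells that difference was -0.29 ± 0.09 and did not pass (adjusted p = 0.494). The interaction for Tspan17 was -0.13 ± 0.13 (adjusted p = 0.747 by limma), so the changes over time were not shown to differ. Tspan10 and Tspan15 were not tested. Adam10, the protease that this group binds, read 5187 ± 324 in GATA1-labelled and 4359 ± 354 in vector-labelled cells at 42 h (0.25, adjusted p = 0.101).

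Among 36 listed partners and genes of tetraspanin complexes 26 were tested, and 4 rose and 3 fell at 42 h, with a median of -0.11. Among all genes tested 10.3% rose and 10.6% fell, so these counts are read as those of single genes and not of partners as a group. The rises were those of Prkca (0.91), a protein kinase C that tetraspanins recruit, Ifitm3 (0.83), an interferon-induced membrane protein, Itga4 (0.74), an integrin chain of progenitors and leukocytes, and Gp6 (0.37), the collagen receptor of platelets, with adjusted p between 4.56e-05 and 0.0343. The falls were those of Clec4e (-3.77) and Fcer1g (-1.55), a lectin receptor and the signalling chain of Fc receptors in myeloid cells, and of Ifitm1 (-1.31). The integrin chains that pair as the platelet fibrinogen receptor, Itga2b and Itgb3, differed by -0.32 and -0.12 (adjusted p = 0.108 and 0.733). Itgb1, the beta chain that Cd151 and Cd9 meet in many cells, differed by -0.06 (adjusted p = 0.894). At 18 h only Clec4e passed among the 26, at -2.05 (adjusted p = 0.00255).

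The tested genes most like Tspan33 over the 4 group means, each gene centred on its own mean, were Ermap, Rhag, Add2, Acp5 and Hbb-b2. The root mean square difference from Tspan33 was 0.14 (log2) for Ermap and 0.27 for Hbb-b2. Ermap and Rhag encode red cell membrane proteins, Add2 a subunit of the membrane skeleton protein adducin, Acp5 a phosphatase best known from osteoclasts, and Hbb-b2 an adult beta globin. Ermap averaged 199.8 in GATA1-labelled and 4.22 in vector-labelled cells at 42 h, and 4.13 and 4.16 at 18 h. Outside GATA1 42 h, Ermap and Hbb-b2 averaged under the lowest array median in every group. Rhag did so in vector 18 h and Add2 in vector 18 h and vector 42 h, while Acp5 averaged over every array median in each group. For Ermap and Hbb-b2 the filter could be met through GATA1 42 h alone, so their likeness to Tspan33 rests largely on values that may be background. For Cd53 the tested genes most like it were Armcx4, Cd69, Hmga2, Tespa1 and Il4ra, at root mean square differences of 0.18 to 0.22. Cd69, a surface marker of activated leukocytes, averaged 79.1 in GATA1-labelled and 442 in vector-labelled cells at 42 h, and 187 and 510.2 at 18 h. Likeness was measured over 4 groups of these same 12 arrays and says nothing of shared control.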

How the data were processed

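Messenger RNA of 12 samples was measured on Affymetrix mouse arrays. The deposited values are linear intensities, one per probe set and array. Per the submitters' processing notes, GCRMA and MAS5 were used, with no version and no statement of which gave the deposited intensity. Background correction, scaling and genome build are not given in the sources used here, no depth or detection call is given, and the number of arrays limits the precision.

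Control probe sets were left out, and 34945 probe sets with 1 symbol in the platform annotation named 18193 genes (932 had several symbols and 9160 none). Gene IDs of 34741 matched RefSeq GRCm38.p6. The brightest probe set stood for a gene and was tested where at least 3 of the 12 arrays gave it a value above their median. Values were analysed as log2(intensity + 16) in limma (version 3.58.1, R version 4.3.3; functions lmFit, eBayes; two-sided) over all 12 arrays in 4 groups, with a threshold of 0.05. Such folds understate changes of dim genes. There were 5 comparisons: GATA1 against vector at 42 h and 18 h, the difference of these effects, and 42 h against 18 h within each construct. The fit was also run on simulated arrays with independent noise and planted changes of 1 or 2 (log2) in GATA1 42 h. It recovered 88 of 100 changes of 1 and 100 of 100 changes of 2, and 15 unchanged genes passed. Smaller changes and arrays linked by letter were not simulated, so the run does not bear on calls of that kind.

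Same-letter arrays deviated together from their group means in the comparisons of GATA1 with vector (r 0.246 to 0.605 at 42 h and 0.312 to 0.657 at 18 h) and of vector over time (0.357 to 0.54), but not in every pair of GATA1 over time (0.0506 to 0.612). With the replicate block no member's call changed in the first 3 of these.

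The members, lists, named genes and alternatives were chosen with earlier results of these data known. Named were all members, further tetraspanins and partners that passed at 42 h by size, the TspanC8 genes with Adam10, and the 5 genes most like the member that rose or fell most. Itga2b, Itgb3, Itgb1 and the markers were named after their values were seen.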

Additional observations from a re-analysis of the deposited data

Results flagged for a closer look

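For 4 of the 7 tested tetraspanin genes the effect of GATA1 differed between 42 h and 18 h by limma's interaction term. Among all genes tested 4.66% passed, 2.29% upward and 2.37% downward. The difference of effects was 3.67 ± 0.31 (adjusted p = 1.90e-04) for Tspan33, -1.05 ± 0.16 (adjusted p = 0.00546) for Cd37, -0.36 ± 0.06 (adjusted p = 0.0118) for Cd81 and -0.35 ± 0.07 (adjusted p = 0.0167) for Tspan32. On all 3 GATA1-labelled arrays at 42 h Tspan33 was higher than on any other array, and Cd37, Cd81 and Tspan32 were lower than on any other. The calls of Cd81 and Tspan32 ended with a stricter filter and without the arrays lettered A. With the second probe sets Cd37 and Tspan32 did not pass (limma adjusted p = 0.753 and 0.862). Of the 26 tested partners, 2 passed upward and 3 downward. Among partners the effect differed upward by 0.69 ± 0.10 (adjusted p = 0.00581) for Ifitm3 and 0.36 ± 0.09 (adjusted p = 0.0462) for Gp6, and downward by -1.72 ± 0.33 (adjusted p = 0.018) for Clec4e, -1.31 ± 0.13 (adjusted p = 4.91e-04) for Fcer1g and -1.48 ± 0.23 (adjusted p = 0.00643) for Ifitm1. Gp6 was dim in every group, with means of 15.3 to 25.5. The cause of these differences between the times was not tested.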

How the results depend on the processing

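Over 24 alternatives, 756 of 818 values of single tetraspanin genes kept their direction and side of the threshold, 42 lost a call, 10 gained one and 10 changed sign. At 42 h the count of 7 was 6 when the fit held just the 6 arrays compared. It was also 6 when those lettered A were dropped, and each time the gene lost was Cd151. A second probe set was tested for 4 genes, of which 4 passed with the brightest and 2 with the second brightest. The count of 2 at 18 h was 1 with a pseudocount of 1, no filter, a stricter filter (intensity over 100), array weights or trend and robust, and 0 with only the arrays compared, without the arrays lettered A, or with every probe set fitted on its own. Leaving out 1 array gave 0 to 1 there. The 4 genes of the interaction became 2 with the stricter filter and 2 without the arrays lettered A. Cd81 has no second probe set. Among the 4 genes that have a tested one, 3 passed in the interaction and 3 in GATA1 over time. With the second brightest probe set each of these counts became 1. Cd9 passed in the interaction with array weights (adjusted p = 0.035). The cause of these shifts was not tested.

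Every change of sign was in a difference that had not passed, apart from Tspan32 in GATA1 over time, at 0.0583 with its second probe set. Tspan32 at 18 h was -0.00983 with array weights, -0.00700 without the arrays lettered A and -0.0220 to 0.0426 leaving out 1 array. In vector over time the second probe sets gave 0.35 for Cd37 and 0.18 for Tspan32, Tspan33 was 0.0143 without the arrays lettered A and -0.0451 to 0.00951 leaving out 1 array, and Cd53 was -0.0793 to 0.45, negative without replicate C of vector 18 h.

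The replicate block gave 7 genes at 42 h, 2 at 18 h and 0 in vector over time, and changed no other call there. In GATA1 over time, where same-letter arrays deviated together in some pairs but not all (r 0.0506 to 0.612), it gave 5, adding Cd53 (adjusted p = 0.0304). In the interaction it gave 4. Over all genes the count at 18 h (199) was 119 without a filter, 54 with only the arrays compared, 358 with the block, 34 without the arrays lettered A, and 101 to 120 without replicate A or B of either 18 h group. The interaction (501) gave 319 without a filter, 846 with the block, 259 without the arrays lettered A and 323 without replicate B or C of GATA1 18 h. GATA1 over time (1574) gave 2929 with array weights, and vector over time (2) gave 0 to 41. Intensities close to the array median or under it leave Cd82 and the other probe sets that failed the filter unmeasured. The dimmer probe sets of Cd37 and Tspan32 exceeded the median on 12 of 12 arrays and were tested.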
